A study of Mus musculus with 6 samples.

Results

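The Kruppel-like factors are zinc-finger transcription factors that bind CACCC and GC-rich boxes in DNA. In T cells the best known of them is KLF2, which keeps resting cells quiescent and drives the genes that let them leave and re-enter lymph nodes, and whose transcript falls when the antigen receptor is engaged. Other members repress transcription through the corepressors CtBP or SIN3A, and several are switched on within minutes of a stimulus. The transcripts of 8 members, Klf2, Klf3, Klf4, Klf6, Klf7, Klf10, Klf12 and Klf13, were followed by their symbols in RNA-sequencing counts of 23284 genes. All 8 passed the filter on low counts, which left 12951 genes for testing.

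The libraries came from C3H/HeJ lymph node cells sorted by flow cytometry, 3 from CD3+CD8+CD44+CXCR3+NKG2D+ cells and 3 from CD3+CD8+CD44+CXCR3+NKG2D- cells. Both populations thus carried the surface markers of antigen-experienced CD8 T cells and were parted only by NKG2D, an activating receptor encoded by Klrk1. C3H/HeJ is an inbred mouse strain in which the autoimmune hair loss disease alopecia areata is studied. The labels give neither the age nor the disease state of the animals, and the sort is the only difference between the groups that the labels state. The cells were sorted from 3 mice, and libraries with the same number in both populations were taken to share a mouse.

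Gene counts summed to between 63232698 and 89184611 in the NKG2D+ libraries and between 41168816 and 67315805 in the NKG2D- libraries. Klrk1 levels, in counts scaled to library size (CPM), were 409, 312 and 342 in NKG2D+ libraries 1, 2 and 3, against 34.5, 37.1 and 36.1 in NKG2D- libraries, so its RNA followed the sort. The T-cell genes Cd3e and Cd8a were abundant in all 6 libraries. In NKG2D+ libraries 1, 2 and 3, 8 genes of the sorted surface markers, Klrk1 among them, summed to 5900, 3798 and 3970 CPM. In NKG2D- libraries they summed to 3885, 3613 and 3694 CPM. NKG2D+ library 1 thus stood apart in T-cell genes, and also in markers of other cells. It was the lowest in the summed level of 8 genes of an NK-cell list, some also made by CD8 T cells. They summed to 377, 577 and 495 CPM in NKG2D+ libraries, against 489, 454 and 490 CPM in NKG2D- libraries. Of the 5 tested, 4 had a positive and 1 a negative log2 fold change. The summed level of 14 B-cell markers was 693, 433 and 486 CPM in NKG2D+ libraries 1, 2 and 3, against 133, 324 and 273 CPM in NKG2D- libraries, and 14 of 14 had a positive log2 fold change. Much of the sum in libraries 2 and 3 was Cd22, at 147, 200 and 207 CPM in NKG2D+ libraries. In NKG2D- libraries it had 58.0, 113 and 115 CPM. Of the NKG2D+ libraries, library 1 was the lowest for Cd22 and the highest for the rest of the list. The summed level of 19 myeloid and dendritic cell markers was 46.8, 29.5 and 39.1 CPM in NKG2D+ libraries, against 23.0, 28.7 and 28.1 CPM in NKG2D- libraries. Among these, Cd14, S100a8 and the F4/80 gene Emr1 were under 0.5 CPM in every library. Of the 17 tested, 11 had a positive and 6 a negative log2 fold change. Some of the list were highest in NKG2D+ library 1. Xcr1, a dendritic cell gene, had 14.6, 4.18 and 9.11 CPM in NKG2D+ libraries 1, 2 and 3, against 1.86, 2.21 and 2.64 CPM in NKG2D- libraries. Lyz2, a lysozyme gene, had 11.7, 4.08 and 6.09 CPM in NKG2D+ libraries, against 3.22, 3.65 and 3.13 CPM in NKG2D- libraries. In bulk RNA, a smaller number of cells of a type and less RNA per cell cannot be told apart.

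Within each population the levels of the 8 genes differed widely. Divided by the merged exon length of each gene, Klf2 had the highest level in every library, at 169 ± 60.4 CPM per kb in NKG2D+ and 221 ± 25.8 CPM per kb in NKG2D- cells (SD, n = 3 each). Klf6 and Klf13 held the next places. Klf6 averaged 64.1 ± 28.9 in NKG2D+ and 39.8 ± 8.004 CPM per kb in NKG2D- cells, and Klf13 48.4 ± 5.19 in NKG2D+ and 52.0 ± 4.07 CPM per kb in NKG2D- cells. Klf6 stood above Klf13 in NKG2D+ library 1 and below it in the other 5 libraries, so in NKG2D+ cells their order did not hold beyond the spread. Klf3 followed at 15.8 ± 6.13 in NKG2D+ and 22.5 ± 0.639 CPM per kb in NKG2D- cells, and Klf10 at 10.4 ± 2.72 in NKG2D+ and 6.15 ± 0.662 CPM per kb in NKG2D- cells. Klf4 averaged 5.17 ± 5.35 in NKG2D+ and 3.56 ± 3.14 CPM per kb in NKG2D- cells. Klf12 was at 1.24 ± 0.653 in NKG2D+ and 0.388 ± 0.0920 CPM per kb in NKG2D- cells, and Klf7 at 0.993 ± 0.340 in NKG2D+ and 1.23 ± 0.180 CPM per kb in NKG2D- cells. Over libraries, the ranges of Klf3 and Klf10 and those of Klf10 and Klf4 overlapped in NKG2D+ cells, and Klf12 overlapped both Klf4 and Klf7 there. In NKG2D- cells Klf3 stood clear of Klf10 and Klf12 clear of Klf7, while Klf4 overlapped Klf10 and Klf7.

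The comparison of the populations asked whether any of these factors differed with NKG2D. With all 6 libraries, 0 of 8 passed the test, edgeR's quasi-likelihood test at an adjusted p under 0.05, against 2.02% of all genes tested. By direction, 1.65% of all genes tested were called higher and 0.363% lower in NKG2D+ cells. With the library number as a block the count was again 0, with 0.525% of genes called. Klf10 and Klf12 had an unadjusted p under 0.05, which is 2 of 8 members, against 21.1% of all genes tested. DESeq2, another count model, called both of them higher in NKG2D+ cells and called 11.1% of all genes, while limma-voom called 0 members and 0.641% of all genes. Klf4, Klf6, Klf10 and Klf12 had positive and Klf2, Klf3, Klf7 and Klf13 negative log2 fold changes. The median size of the log2 fold change was 0.53 over the 8 members and 0.16 over all genes tested. The populations did not overlap for 3 of 8 members, Klf3, Klf10 and Klf12, against 29.1% of all genes tested.

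**Figure D1:**
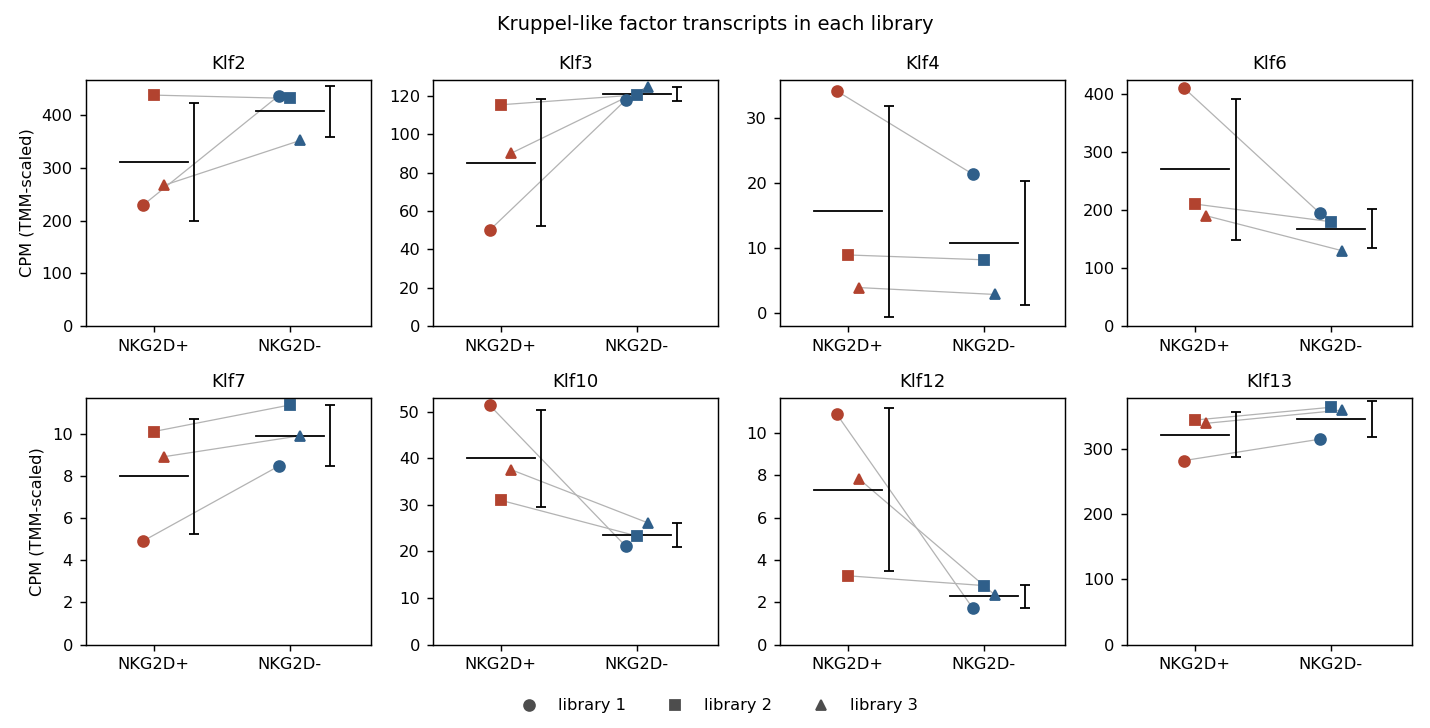
CPM of each member in the 6 libraries, NKG2D+ left and NKG2D- right. Symbols give the library number, grey lines join libraries of the same number, horizontal bars are means and vertical bars the SD over 3 libraries. The NKG2D+ libraries spread more widely than the NKG2D- libraries for all 8 genes, and NKG2D+ library 2 lies nearest to its NKG2D- partner for the 7 genes other than Klf7.

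Klf2 and Klf3 had the most negative log2 fold changes of the 8, and neither passed the test. The level of Klf2 was 229, 439 and 268 CPM in NKG2D+ libraries 1, 2 and 3, against 437, 432 and 353 CPM in NKG2D- libraries. Libraries 1 and 3 of the NKG2D+ cells lay below all NKG2D- libraries and library 2 lay above them, so the groups overlapped. The log2 fold change was -0.39 (SE 0.24), with a 95% interval from -0.96 to 0.19 and an edgeR adjusted p of 0.418. Without NKG2D+ library 2 it was -0.71 and Klf2 passed the test, with an adjusted p of 0.0181 by edgeR, at a background of 9.96% of genes called. The same-numbered pairs gave log2 ratios of -0.93, 0.02 and -0.40.

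Klf3, which encodes a repressor that recruits CtBP, stood at 50.1, 115 and 90.3 CPM in NKG2D+ libraries, against 118, 121 and 125 CPM in NKG2D- libraries. Every NKG2D+ library lay below every NKG2D- library, as for 14.1% of all genes tested, but NKG2D+ library 2 lay within a few CPM of its partner. The NKG2D- libraries were close together, with a coefficient of variation of 2.84%, and the NKG2D+ libraries were not, at 38.7%. Its log2 fold change was -0.51 (SE 0.27), with a 95% interval from -1.15 to 0.14 and an edgeR adjusted p of 0.348. Without NKG2D+ library 1 it was -0.23.

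For Klf10 and Klf12 the lowest NKG2D+ library lay above the highest NKG2D- library, as for 15.1% of all genes tested. Klf10 encodes a TGF-beta-inducible factor that represses through SIN3A. Its level was 51.4, 31.0 and 37.5 CPM in NKG2D+ libraries 1, 2 and 3, against 21.1, 23.3 and 26.2 CPM in NKG2D- libraries. That is 1.70-fold in the means. The log2 fold change was 0.76 (SE 0.19), with a 95% interval from 0.32 to 1.21 and an edgeR adjusted p of 0.0882. The interval is for this gene alone and takes no account of the number of genes tested. DESeq2 gave an adjusted p of 0.00344, and edgeR gave 0.0525 without NKG2D+ library 1, where 4.13% of genes were called, and 0.0161 without NKG2D+ library 2. Klf10 did not pass with the block (adjusted p = 0.135 by edgeR) or by limma-voom (0.142). Nor did it pass by edgeR without NKG2D+ library 3 (0.201) or without each NKG2D- library (0.226 to 0.284).

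Klf12 encodes a repressor that, like KLF3, binds CtBP, and in mice it is known for promoting natural killer cell proliferation. Its level was 10.9, 3.25 and 7.85 CPM in NKG2D+ libraries, against 1.71, 2.79 and 2.35 CPM in NKG2D- libraries, from 291 to 716 counts in NKG2D+ and 68 to 165 counts in NKG2D- libraries. NKG2D+ libraries 1 and 3 stood well clear of the NKG2D- range and library 2 only just above it. The means differed 3.21-fold. Its log2 fold change was 1.67 (SE 0.44), with a 95% interval from 0.64 to 2.71 and an edgeR adjusted p of 0.0988. Of all genes tested, 96.8% had a smaller change in size. DESeq2 gave an adjusted p of 0.00179, and edgeR gave 0.00662 without NKG2D+ library 2 and 0.123 without NKG2D+ library 1. Klf12 did not pass with the block (adjusted p = 0.170 by edgeR) or by limma-voom (0.231). Nor did it pass by edgeR without NKG2D+ library 3 (0.239) or without each NKG2D- library (0.209 to 0.316). For both Klf10 and Klf12 the summed B-cell and myeloid markers were higher in the same libraries, and the part of those cells in the result was not tested.

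The sequences upstream of Klf2, Klf3 and Klf12 are shown because the boxes that Kruppel-like and MEF2 factors recognise can be read in them, in members with values on both sides of the comparison. Each is the 250 bases before the RefSeq start of the gene, read 5′ to 3′ on the strand of the gene, in build GRCm38.p6. Capitals mark the core of a MEF2 site (TAAATTTA, its own reverse complement), a KLF box (CCACACCC) or a CACCC box on either strand, and every KLF box holds a CACCC box.
Klf2, chr8:72318812-72319061, plus strand: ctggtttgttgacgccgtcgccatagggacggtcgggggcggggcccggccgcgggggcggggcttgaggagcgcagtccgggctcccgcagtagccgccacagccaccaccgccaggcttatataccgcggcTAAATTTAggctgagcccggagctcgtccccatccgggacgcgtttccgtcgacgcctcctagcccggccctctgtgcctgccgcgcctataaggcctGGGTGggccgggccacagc
Klf3, chr5:64803271-64803520, plus strand: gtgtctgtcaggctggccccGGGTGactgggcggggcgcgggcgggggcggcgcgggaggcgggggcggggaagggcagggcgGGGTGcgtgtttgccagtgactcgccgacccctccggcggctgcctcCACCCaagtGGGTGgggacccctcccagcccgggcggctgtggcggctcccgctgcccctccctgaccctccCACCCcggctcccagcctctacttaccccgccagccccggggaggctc
Klf12, chr14:100149797-100150046, minus strand: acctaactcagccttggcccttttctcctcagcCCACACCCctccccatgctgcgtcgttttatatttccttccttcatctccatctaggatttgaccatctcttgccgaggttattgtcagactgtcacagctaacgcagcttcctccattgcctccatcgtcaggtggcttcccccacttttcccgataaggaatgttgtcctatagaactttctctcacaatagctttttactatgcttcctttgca

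Of the 8 members, 7 had an upstream sequence in the RefSeq table. MEF2 factors, acting downstream of ERK5, are known activators of Klf2. The MEF2 core of Klf2 begins 117 bases before the start, and these letters were in 0.502% of 32851 upstream sequences of the same length. Klf12 held the KLF box, which 3.20% of all upstream sequences held. At least 1 CACCC box was in the upstream sequences of Klf2, Klf3, Klf7, Klf12 and Klf13 and in 52.0% of all, and Klf3 had the most, with 5. The GC box GGGCGG was upstream of Klf2, Klf3, Klf4, Klf6, Klf7 and Klf13 and in 32.7% of all. These are matches of letters in this window and no measure of binding.

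Within each population Klf6 and Klf4 were highest in the library numbered 1, though for Klf6 only slightly so in NKG2D- cells. KLF6 is a widely expressed activator induced early after stimulation. Its transcript had 411, 211 and 191 CPM in NKG2D+ libraries 1, 2 and 3, against 195, 180 and 130 CPM in NKG2D- libraries. NKG2D+ library 1 was the highest by far, and the groups overlapped because NKG2D+ library 3 lay below NKG2D- library 1. The NKG2D+ library was the higher in all 3 pairs. The log2 fold change was 0.69 (SE 0.31), with a 95% interval from -0.06 to 1.43 and an edgeR adjusted p of 0.270, and it was 0.26 without NKG2D+ library 1. The count ratio of Klf2 to Klf6, which needs no scaling, was 0.557, 2.08 and 1.40 in NKG2D+ libraries 1, 2 and 3, against 2.25, 2.40 and 2.71 in NKG2D- libraries.

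Klf4, a brake on CD8 T-cell proliferation downstream of the factor ELF4, varied more between library numbers than between populations. It had 34.1, 8.93 and 3.91 CPM in NKG2D+ libraries 1, 2 and 3, against 21.3, 8.18 and 2.85 CPM in NKG2D- libraries. Both libraries numbered 1 were the highest and both numbered 3 the lowest, and the ranges of the populations overlapped. The lowest and the highest library differed 11.96-fold. Between the populations the log2 fold change was 0.54 (SE 0.93), with a 95% interval from -1.67 to 2.75 and an edgeR adjusted p of 0.791, and it turned to -0.73 without NKG2D+ library 1. Within same-numbered pairs the NKG2D+ library was higher each time, by 0.68, 0.13 and 0.45 on the log2 scale. With the library number as a block the log2 fold change between the populations was 0.42 (SE 0.13), with an edgeR adjusted p of 0.157.

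A test of the library number itself, chosen after these values were seen, was made in the edgeR fit with population as the other term. Klf4 differed from libraries 1 by a log2 change of -1.66 in libraries 2 and -3.02 in libraries 3, with an unadjusted p of 5.15e-05 and an adjusted p of 0.0775. Since the values of Klf4 prompted the test, its p describes the same observation. In that test Klf6, Klf7 and Klf13 had unadjusted p-values of 0.0294, 0.0450 and 0.0279 by edgeR (adjusted p = 0.309, 0.334 and 0.306). No gene passed there, 0% of those tested, with 1902 genes at an unadjusted p under 0.05. With no filter on low counts 20 genes passed, 0.110% of 18245, and Klf4 was among them with an adjusted p of 0.0223. No other tool was run for it. Mouse and sequencing lane, by the lane tags of the deposited libraries, share these numbers and cannot be told apart.

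Immediate-early genes are switched on by cells within minutes of a stimulus. Their summed level had the same order of libraries within each population as Klf4. A list of 12 such genes, chosen after the values of Klf4 were seen, summed to 2141, 1180 and 783 CPM in NKG2D+ libraries 1, 2 and 3, against 1607, 1117 and 738 CPM in NKG2D- libraries. In single genes the order from libraries 1 to 3 held in both populations for 9 of the 12. In NKG2D+ cells Ier3 had 5.49, 6.77 and 7.89 CPM in libraries 1, 2 and 3, and Egr2 and Nr4a1 were lowest in library 2 of each population. Fos stood at 399, 150 and 88.2 CPM in NKG2D+ libraries, against 272, 149 and 78.1 CPM in NKG2D- libraries. Fosb stood at 242, 74.3 and 24.4 CPM in NKG2D+ libraries, against 105, 48.8 and 8.999 CPM in NKG2D- libraries. Between the populations 0 of the 12 passed by edgeR, DESeq2 or limma-voom, and 0 had an unadjusted p under 0.05 by edgeR. Their part in the levels of Klf4 and Klf6 was not tested.

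**Figure D2:**
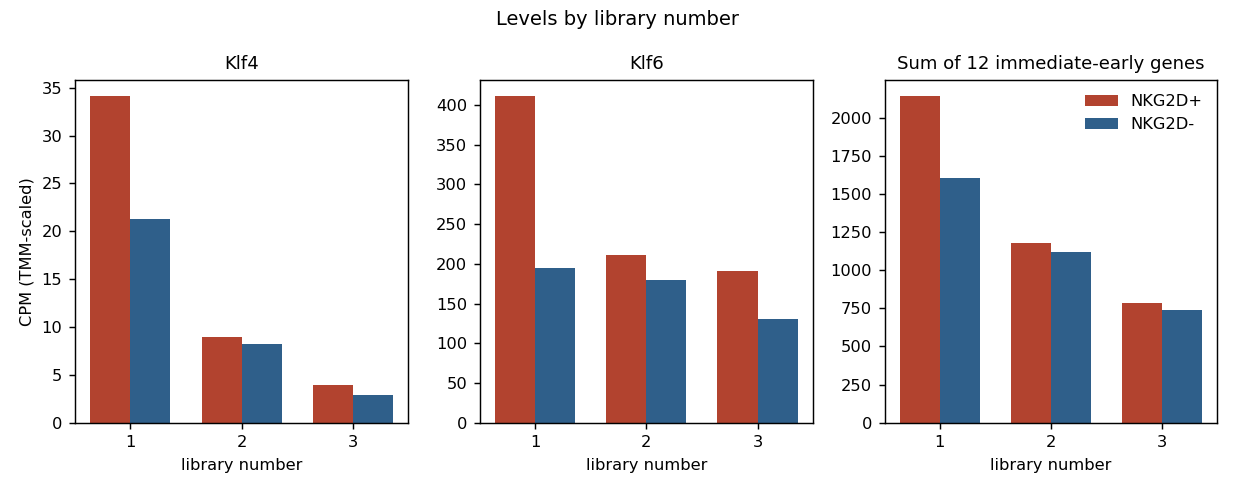
CPM of Klf4, of Klf6 and summed over 12 immediate-early genes, by library number, with NKG2D+ bars left of NKG2D- bars. Libraries 1 were the highest and libraries 3 the lowest within each population in all 3 panels.

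Of the 4 negative log2 fold changes, those of Klf13 and Klf7 were the smallest in size. KLF13 is known as an activator of the chemokine gene CCL5 in human T cells. Klf13 had 283, 345 and 340 CPM in NKG2D+ libraries 1, 2 and 3, against 316, 365 and 360 CPM in NKG2D- libraries. The groups overlapped, and each NKG2D+ library was slightly below its partner. Its log2 fold change was -0.10 (SE 0.10), with a 95% interval from -0.35 to 0.14 and an edgeR adjusted p of 0.616. This was the narrowest interval of the 8. In the GENCODE M21 annotation the gene E030018B13Rik, which has its own row of counts, overlaps Klf13 on the opposite strand, and the library kit does not mark strand, so some of their reads may not have been told apart. Klf3, Klf7 and Klf12 also overlap annotated non-coding genes on the opposite strand, which have no row in the counts.

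Klf7, best known from neurons, stood at 4.91, 10.1 and 8.94 CPM in NKG2D+ libraries, against 8.49, 11.4 and 9.93 CPM in NKG2D- libraries. NKG2D+ library 1 was lower than the rest, and the groups overlapped. The log2 fold change was -0.31 (SE 0.27), with a 95% interval from -0.95 to 0.32 and an edgeR adjusted p of 0.561.

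**Figure D3:**
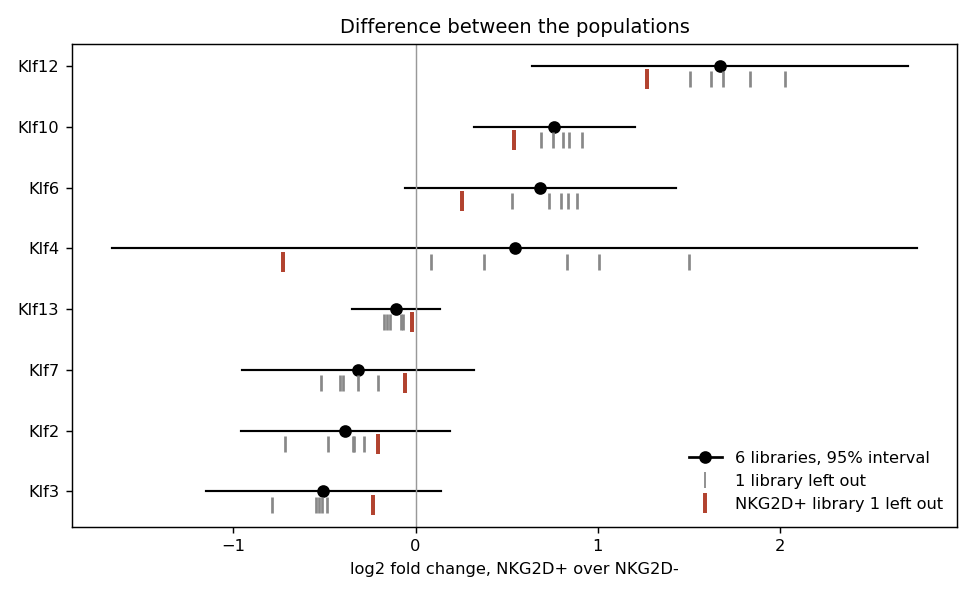
Log2 fold change of each member, NKG2D+ over NKG2D-, with all 6 libraries (black, with 95% intervals) and with 1 library left out at a time (ticks, red for NKG2D+ library 1). Leaving out NKG2D+ library 1 moved all 8 values towards or past 0, and it put Klf4 at -0.73.

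Across the members, NKG2D+ library 1 was the extreme of the 6 libraries for 8 of 8 genes, as it was for 62.1% of all genes tested. It was the highest for Klf4, Klf6, Klf10 and Klf12 and the lowest for Klf2, Klf3, Klf7 and Klf13. The summed level of the 8 genes was 1074, 1163 and 946 CPM in NKG2D+ libraries 1, 2 and 3, against 1118, 1143 and 1009 CPM in NKG2D- libraries, so the sums of the populations overlapped. In NKG2D+ library 1 Klf6 held 38.3% and Klf2 21.3% of the summed CPM, where in the NKG2D- libraries Klf6 held 12.9% to 17.4% and Klf2 34.9% to 39.1%. The 3 genes whose log2 CPM was most like that of Klf2 over the 6 libraries were Psmd3, a proteasome subunit gene (r = 0.997), Eif3f, an initiation factor gene (r = 0.995), and Eef2, the elongation factor gene (r = 0.994). These are the highest of 9460 genes over 6 libraries that share lanes and were taken to share mice, and are a description only.

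Among the rest of the family, Klf8 and Klf11 had the smallest p-values. Of 18 other KLF and SP genes, 9 were tested, 0 passed, 2 had an unadjusted p under 0.05, and DESeq2 called 2 and limma-voom 0. Their median log2 fold change was 0.04, against -0.01 over all genes tested. Klf11, a TGF-beta-inducible relative of Klf10, had a log2 fold change of 0.57 (edgeR adjusted p = 0.123). Klf8 encodes a CtBP-binding repressor that KLF3 holds down in mouse red cells. It had 11.6, 3.38 and 7.42 CPM in NKG2D+ libraries 1, 2 and 3, against 1.74, 1.57 and 1.56 CPM in NKG2D- libraries. The NKG2D- libraries were nearly equal and every NKG2D+ library lay above them, with the NKG2D+ libraries in the same order as for Klf12. Its log2 fold change was 2.199 (SE 0.43) and the edgeR adjusted p 0.0544. By edgeR, the adjusted p of Klf8 was 0.0291 without NKG2D+ library 1, where 4.13% of all genes were called, and 0.00262 without NKG2D+ library 2, where 9.96% were. It was 0.163 without NKG2D+ library 3, 0.179 to 0.257 without each NKG2D- library, 0.0936 with the block and 0.154 by limma-voom, and 6.23e-06 by DESeq2. Klf1, Klf5, Klf14, Klf15 and Klf17 were under 0.2 CPM in every library.

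Upstream of these factors, 19 regulators were tested, 0 passed, 2 had an unadjusted p under 0.05, and DESeq2 called 1 and limma-voom 0. They include the FOXO factors that drive Klf2, ELF4, the ERK5 and MEF2 pathway and the ubiquitin ligases that degrade KLF2. The smallest p was that of Foxp1, a factor of T-cell quiescence, at 167, 188 and 179 CPM in NKG2D+ libraries, against 234, 212 and 217 CPM in NKG2D- libraries (log2 fold change -0.31, SE 0.07, edgeR adjusted p = 0.0841). Of 17 cofactors that bind KLF proteins, 0 passed, 2 had an unadjusted p under 0.05, DESeq2 and limma-voom called 0, and the median log2 fold change was 0.00. The smallest p among them was that of Ehmt2, a histone methyltransferase gene, with a log2 fold change of 0.27 and an edgeR adjusted p of 0.133. Of 9 TGF-beta pathway genes around KLF10, 0 passed, 2 had an unadjusted p under 0.05, and DESeq2 called 1 and limma-voom 0. The smallest p was that of the SMAD corepressor gene Ski, with a log2 fold change of 0.32 and an edgeR adjusted p of 0.109.

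Genes downstream of KLF2 were read in a list of genes lowered when mouse T cells lack it. Of 6 lowered genes, 0 passed, 3 had an unadjusted p under 0.05, and DESeq2 called 3 and limma-voom 0, with a median log2 fold change of -0.33. Over all genes tested, 2.02% passed, 21.1% had an unadjusted p under 0.05, and DESeq2 called 11.1% and limma-voom 0.641%, with a median of -0.01. The smallest p was that of Ccr7, the lymph node homing receptor gene, with 129, 214 and 165 CPM in NKG2D+ libraries 1, 2 and 3, against 309, 290 and 284 CPM in NKG2D- libraries. The groups were well apart. The log2 fold change of Ccr7 was -0.80 (SE 0.17) and its edgeR adjusted p 0.0691, and Ccr7 passed without NKG2D+ library 1 (adjusted p = 0.0254) or 2 (0.00538) and by DESeq2 (0.000268). It did not pass with the replicate block (0.106), by limma-voom (0.0947), without NKG2D+ library 3 (0.198) or without each NKG2D- library (0.188 to 0.257). S1pr1, the receptor gene for lymph node exit that KLF2 switches on, had 166, 308 and 249 CPM in NKG2D+ libraries 1, 2 and 3, against 389, 379 and 375 CPM in NKG2D- libraries (log2 fold change -0.66, SE 0.20, edgeR adjusted p = 0.137). S1pr1 also passed by DESeq2 (adjusted p = 0.0166), without NKG2D+ library 1 (0.0427) and without NKG2D+ library 2 (0.0269). It did not pass with the block (0.140), by limma-voom (0.148), without NKG2D+ library 3 (0.283) or without each NKG2D- library (0.276 to 0.353). All NKG2D+ libraries lay below all NKG2D- libraries for Ccr7 and S1pr1, with NKG2D+ library 2 the nearest to them, as for Klf3. Other genes of the list did not share this pattern. The integrin gene Itgb7 and the IL-7 receptor gene Il7r had log2 fold changes of 0.44 and 0.42 (edgeR adjusted p = 0.238 and 0.305) and were higher in the NKG2D+ library of all 3 pairs, and S1pr4 had -0.03 (0.856).

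Of 10 cell-cycle brakes linked to KLF2 and KLF4, 1 rose and 0 fell, against 1.65% and 0.363% of all genes tested. Of the list, 5 had an unadjusted p under 0.05, and DESeq2 called 5 and limma-voom 0, against 21.1%, 11.1% and 0.641% of all genes. The gene that rose was Cdkn2a, which encodes the inhibitor p16, at 3.12, 1.03 and 1.85 CPM in NKG2D+ libraries, against 0.101, 0.321 and 0.2495 CPM in NKG2D- libraries (log2 fold change 3.10, SE 0.54, edgeR adjusted p = 0.0443). Its counts were low, at 205, 92 and 143 in NKG2D+ libraries 1, 2 and 3, against 4, 19 and 16 in NKG2D- libraries. The call was lost with the replicate block (adjusted p = 0.109), by limma-voom (0.109), without NKG2D+ library 3 (0.135) and without each NKG2D- library (0.142 to 0.221). Of 4 genes linked to KLF3 and KLF13, 2 rose, against 1.65% of all genes tested. DESeq2 called 3 of them, limma-voom 1 and edgeR with the replicate block 1, against 11.1%, 0.641% and 0.525% of all genes. Lgals3, the galectin gene that KLF3 represses in mouse cells, had 293, 70.8 and 112 CPM in NKG2D+ libraries 1, 2 and 3, against 8.06, 6.31 and 3.95 CPM in NKG2D- libraries (log2 fold change 4.71, SE 0.62, edgeR adjusted p = 0.0248). Ccl5 stood at 1722, 1121 and 1101 CPM in NKG2D+ libraries, against 451, 493 and 446 CPM in NKG2D- libraries (log2 fold change 1.51, SE 0.18, edgeR adjusted p = 0.0196), while Klf13, given above, had a log2 fold change of -0.10. With the replicate block the adjusted p of Ccl5 was 0.0597, and without each NKG2D- library it was 0.0965 to 0.142. For Lgals3 it was 0.0740 without the filter, 0.0683 by limma-voom and 0.126 to 0.154 without each NKG2D- library. Without NKG2D+ library 3 the adjusted p was 0.0765 for Ccl5 and 0.0810 for Lgals3.

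**Figure D4:**
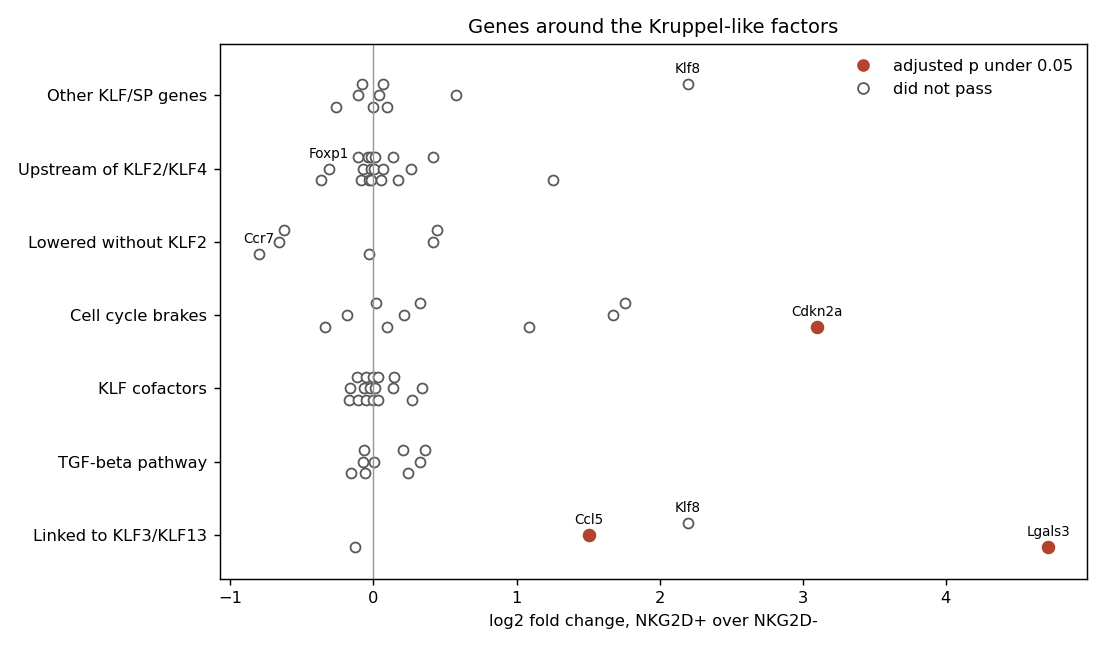
Log2 fold change, NKG2D+ over NKG2D-, of the tested genes in 7 lists around the Kruppel-like factors, with 1 circle per gene. Filled circles are the 3 genes that passed, Cdkn2a, Ccl5 and Lgals3, all to the right of 0, and Klf8 stands in both of the lists it belongs to.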

How the data were processed

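The authors deposited raw read counts per gene, without normalisation, in 1 file per library. RNA was column-extracted with DNase treatment and made into TruSeq v2 libraries, per the labels' protocols. The submitters' processing notes name CASAVA 1.8.2, TopHat2 2.0.4 and mm9. The sources used here do not say how reads were counted, or with which annotation and strand. The 5 rows that name no gene were left out. Of them, reads outside genes were 14.0% to 15.9% of the total, ambiguous reads 0.715% to 0.836% and reads aligned to several places 19.7% to 26.2%.

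Counts were fitted over all genes in R 4.3.3 with edgeR 4.0.16 (TMM, filterByExpr with a minimum count of 10 and total of 15, robust quasi-likelihood F-test, group as the only term) and adjusted by Benjamini-Hochberg at 0.05. This test was checked on simulated counts. CPM uses TMM-scaled library sizes of the tested genes. Intervals are from the edgeR standard error and the gene's degrees of freedom, in the fit with group alone. That fit leaves the spread between library numbers in the standard error. With the library number as a block the standard error was smaller for Klf2, Klf3, Klf4, Klf6, Klf7 and Klf13. It was larger for Klf10 and Klf12. DESeq2 1.42.0 and limma 3.58.1 voom were alternatives. Exon lengths are merged exons of GENCODE M21 and upstream sequences are from RefSeq (GRCm38.p6), a later build than mm9. Likeness is Pearson's r of log2(CPM + 0.5) among genes with a mean of at least 5 CPM.

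Deviations from group means correlated across genes at r = 0.252, 0.196 and 0.38 between libraries numbered 1, 2 and 3, where the series description speaks of 3 mice, so the numbers were taken as pairs. Nothing else ties replicates to separate sorts. A two-sided exact permutation test cannot go below p = 0.1 for 3 against 3 and was not used for calls. No library was a copy of another (chi-square within groups divided by its degrees of freedom, 40.7 to 235).

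The members and the gene lists were chosen with earlier results of these data known. Named genes are the 8 members, Klrk1, up to 4 called genes of each list by smallest p (else the smallest p, as a value), and the 3 genes most like Klf2 or like any called member. Beyond this rule, Cd3e, Cd8a, S1pr1, S1pr4, Itgb7, Il7r, Cd14, S100a8, Emr1, Xcr1, Lyz2, Fos, Fosb, Ier3, Egr2, Nr4a1, Klf11, E030018B13Rik and the silent family genes were picked once values were known. Some genes that fall under the rule, and 1 list, are not reported here.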

Additional observations from a re-analysis of the deposited data

How the results depend on the processing

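The number of genes called was 261 by edgeR with all 6 libraries. It was 1442 by DESeq2, 83 by limma-voom and 68 with the replicate block, of which 57 were among the 261, and 8 to 1312 with 1 library left out. The number of Klf members called was 0, and 2 by DESeq2 (Klf10 and Klf12), and 0 to 3 with 1 library left out, where all 3 (Klf2, Klf10 and Klf12) came without NKG2D+ library 2. The replicate block changed no call among the members. Klf4 turned to -0.73 without NKG2D+ library 1, in a fit with group alone that kept the NKG2D- library of the same number. Within all 3 same-numbered pairs Klf4 was higher in the NKG2D+ library. The other 7 members kept their sign in all 11 alternatives. Without NKG2D+ library 1 the log2 fold changes of Klf2, Klf3, Klf6 and Klf7 fell in size by over 1.5 times, to -0.21, -0.23, 0.26 and -0.06, and that of Klf13 to -0.02. For 27 named genes, 242 of 297 alternative values kept their direction and their side of the threshold, 28 lost a call and 26 gained it. RLE size factors changed no call among the members. The lowest count of a member was 68, for Klf12 in an NKG2D- library, and the effect of depth was not tested.

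Among other named genes, the calls of Pecam1 and Col1a1, from the list of endothelial and stromal markers, were 1 lower (log2 fold change -0.47) and 1 higher (1.42) in NKG2D+ cells, and both were lost with the replicate block (adjusted p = 0.0537 and 0.0806).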

Other observations

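Markers of other cells were read beside the Kruppel-like factors. In no list of markers of B cells (14 tested), myeloid and dendritic cells (17), NK cells (5) or CD4 T cells (5) did a gene pass edgeR's test, with 12, 8, 4 and 3 genes at an unadjusted p under 0.05, against 21.1% of all genes tested. DESeq2 called 6, 3, 1 and 3 of them, against 11.1% of all genes, and limma-voom called 0. The genes with the smallest p were Cd22, Fcer1g, Tbx21 and Foxp3, with edgeR adjusted p-values of 0.123, 0.0611, 0.126 and 0.0687. CD8 T cells also express some genes of the NK list, Tbx21 among them, so its counts are not particular to NK cells. Foxp3, the regulatory T-cell factor, had 7.27, 2.45 and 4.94 CPM in NKG2D+ libraries 1, 2 and 3, against 20.8, 16.2 and 14.4 CPM in NKG2D- libraries. Of the 5 CD4 T-cell markers, 2 had a positive and 3 a negative log2 fold change, with a median of -0.07. They summed to 135, 49.4 and 70.3 CPM in NKG2D+ libraries 1, 2 and 3, against 64.5, 68.1 and 58.6 CPM in NKG2D- libraries. Cd40lg, named after its values were seen, stood at 47.7, 3.57 and 6.90 CPM in NKG2D+ libraries, against 2.09, 1.93 and 1.36 CPM in NKG2D- libraries. NKG2D+ library 1 was the highest for Cd40lg, as it was for Klf4, Klf6, Klf10 and Klf12. That library was the extreme of the 6, highest or lowest, for 62.1% of all genes tested.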
